A study of Arabidopsis thaliana with 8 samples.

Results

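The transcripts described here carry coding sequences of 360 nt or less, which encode small proteins such as ribosomal proteins, lipid-transfer proteins, metallothioneins and secreted peptides. They were chosen by 2 annotated lengths alone, a coding sequence of at most 360 nt and a 5′ UTR of more than 40 and under 400 nt, and no measured value entered the choice. This left 1325 of the 22567 transcripts with a footprint in any library, and 5296 transcripts with coding sequences of 900 to 1500 nt and the same 5′ UTR limits served for comparison. Ribosome footprints, the stretches of mRNA that a ribosome shields from RNase, were sequenced from Arabidopsis thaliana inflorescences grown under long days (16 h light and 8 h dark), with cycloheximide in the preparation. The 4 genotypes compared had 2 libraries each (8 in all), namely WT, the single mutant hot3-2, the double mutant dcl2 dcl4 and the triple mutant hot3-2 dcl2 dcl4. The hot3-2 allele is a T-DNA insertion allele of HOT3, which encodes the initiation factor eIF5B1, and dcl2-1 and dcl4-2 remove the Dicer-like proteins DCL2 and DCL4, which make small interfering RNAs. The 4 libraries with the hot3-2 allele are called carriers and the other 4 non-carriers. A single hot3 allele was profiled, whole inflorescences hold many cell types, and nothing in the sources used here says that the libraries of a genotype came from separately grown plants, so p-values measure the spread between these libraries.

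eIF5B is a GTPase that joins the large ribosomal subunit to the small subunit waiting on a start codon. It leaves the ribosome before the first peptide bond forms, so an initiating ribosome holds the initiator tRNA in its P site on the ATG. In a footprint experiment such a ribosome appears as a footprint whose P site lies on the start codon. A short coding sequence offers few codons for elongating ribosomes, so its start codon takes a larger part of its footprints even where ribosomes are spread evenly. Short coding sequences in plants include many proteins made in bulk, among them subunits of the ribosome itself.

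The sequences around the start codon are shown for 8 members on which the results below turn and for 4 members that had many footprints but none or almost none on the ATG. Each is the coding strand of TAIR10.1 from 12 nt before to 12 nt after the ATG, which stands in capitals, so the lower-case letters before it are 5′ UTR and those after it coding sequence.
LP1: taagagatcaatATGgctggagtgatg
LTP2: taagagatcaatATGgctggagtgatg
LTP3: agttcaaacacaATGgctttcgctttg
AGP15: aaaatctttgaaATGgcgatctctaag
MT2A: ttctcgagaaaaATGtcttgctgtgga
MT2B: tctagaaaaaacATGtcttgctgtggt
AT1G72020: tagttctgaatcATGgcgttgagcacc
AT1G27695: aacaagatcactATGgtgctctctgac
KIN2: aatatctgaaaaATGtcagagaccaac
AT5G62080: acaaacttatccATGgcaataatggca
GRP19: atcatcccaaagATGtttgagattatt
AT2G35750: aagcaattgggcATGcccatggacgtt
The ATGs of the lipid-transfer protein genes LP1 (chr2:16130418-16130420, plus strand) and LTP2 (chr2:16128481-16128483, plus strand) stand in the same sequence. Their transcripts are identical over a run of 40 nt, 13 nt before the ATG and 27 nt from the ATG on, so a 28 nt footprint with its P site on one of these start codons could not be told from one on the other.

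Among the 1316 members whose context could be read, 55.2% had an adenine 3 nt before the ATG, against 49.4% of the 5292 longer transcripts. A guanine directly after the ATG was found in 53.0% of members and 58.4% of longer transcripts. Members had shorter 5′ UTRs within the same limits, with a median of 132 nt against 171 nt. They also had fewer exons, with a median of 2 against 5, and 36.1% were encoded by 1 exon against 14.2% of the longer class.

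The libraries held between 1972841 and 3588415 footprints, of which 1198328 to 2842475 had their P site in a nuclear coding sequence. The members took 62689 to 134398 of these per library and 781645 in all, with a median of 5.5 P sites per library and member. Coverage was uneven: 34.7% of the class's P sites lay in its 10 most covered members, 66 members had no P site in the coding sequence, and 768 had none on the start codon in any library. The gene for arabinogalactan protein 15, AGP15, alone held 63358 P sites. Values summed over the class therefore weigh a few abundant transcripts, and the test of each member covers those with enough footprints.

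The start codon took a larger share of the footprints of short coding sequences in the carriers. In WT the start codon share, the percentage of coding-sequence P sites that lie on the ATG, was 2.71 and 2.94%. It reached 11.1 and 9.29% in hot3-2, while dcl2 dcl4 had 1.95 and 2.10% and the triple mutant 7.84 and 10.8%. The groups did not overlap, with the lowest carrier above the highest non-carrier. Counting error was small beside these differences, with 95% Wilson intervals from 1.87 to 2.04% for the lowest library and from 10.95 to 11.33% for the highest, and such intervals cover counting error only.

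The mean share was 9.77% ± 1.51 (SD, n = 4) in carriers and 2.43% ± 0.476 (SD, n = 4) in non-carriers, a ratio of geometric means of 4.04 (two-sided exact permutation test, p = 0.0286, 0.0429 after adjustment over the 6 class measures tested). With 4 libraries against 4 this is the smallest p the test can give. The test shuffled all 8 libraries without regard to the dcl2 dcl4 mutations, and shuffling within each background was not run. hot3-2 stood 3.61-fold above WT and hot3-2 dcl2 dcl4 4.59-fold above dcl2 dcl4, while dcl2 dcl4 stood at 0.717 of WT, comparisons of 2 libraries against 2 that cannot be tested on their own.

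**Figure D1:**
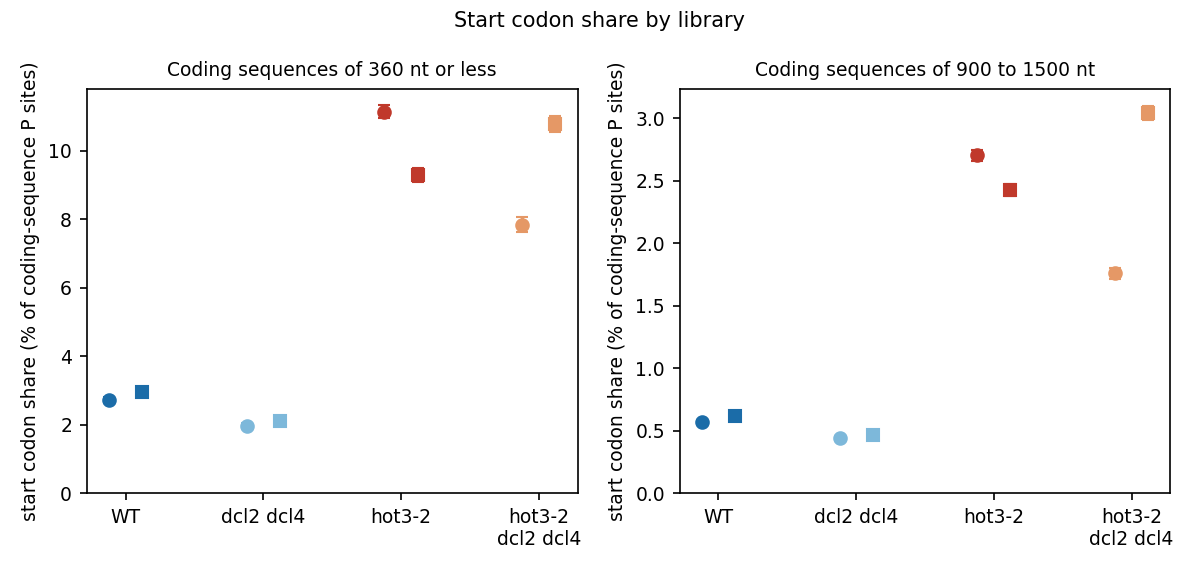
Start codon share (percent of coding-sequence P sites that lie on the ATG) in each library, for short coding sequences and for those of 900 to 1500 nt. Circles are replicate 1 and squares replicate 2, and the bars are 95% Wilson intervals. The 4 carriers lie above the 4 non-carriers in both classes, between 7.84 and 11.1% for short coding sequences.

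The added footprints lay mostly on the ATG itself and, at much lower levels, on the codon before it and further into the 5′ UTR. Among footprints of 28 nt, whose P site was set 12 nt from the 5′ end in all 8 libraries, the start codon of the members held 9.17 to 10.0% of coding-sequence P sites in carriers and 1.93 to 2.63% in non-carriers. The codon before the ATG held 0.845 to 1.47% and 0.253 to 0.299%. Carriers also lay above the non-carriers at each codon from −7 to −4. At codon −5 they held 0.154 to 0.170%, against 0.0553 to 0.0762% in non-carriers. The codon after the ATG held 0.899 to 1.10% in carriers and 0.745 to 0.898% in non-carriers, groups that barely parted. At lengths other than 28 and 29 nt the deposited offsets differed between libraries, mainly in dcl2 dcl4 and hot3-2 dcl2 dcl4 replicate 1. At 26 nt the offset was 10 nt in these and 12 nt in the others. Comparisons over all lengths carry that difference where they involve dcl2 dcl4 or hot3-2 dcl2 dcl4, as does the spread between the 2 triple mutant libraries. At 27 nt the offset was 11 nt in hot3-2 replicate 2 and 12 nt in both WT libraries and hot3-2 replicate 1. The comparison of hot3-2 with WT over all lengths, and the spread between the 2 hot3-2 libraries, carry that difference too. Among 28 nt footprints these 2 had shares of 9.79 and 9.31% in the members, a ratio of geometric means of 4.91 to dcl2 dcl4. With 28 nt footprints dcl2 dcl4 still lay below WT in the members (1.93 and 1.95% against 2.53 and 2.63%, a ratio of 0.754).

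**Figure D2:**
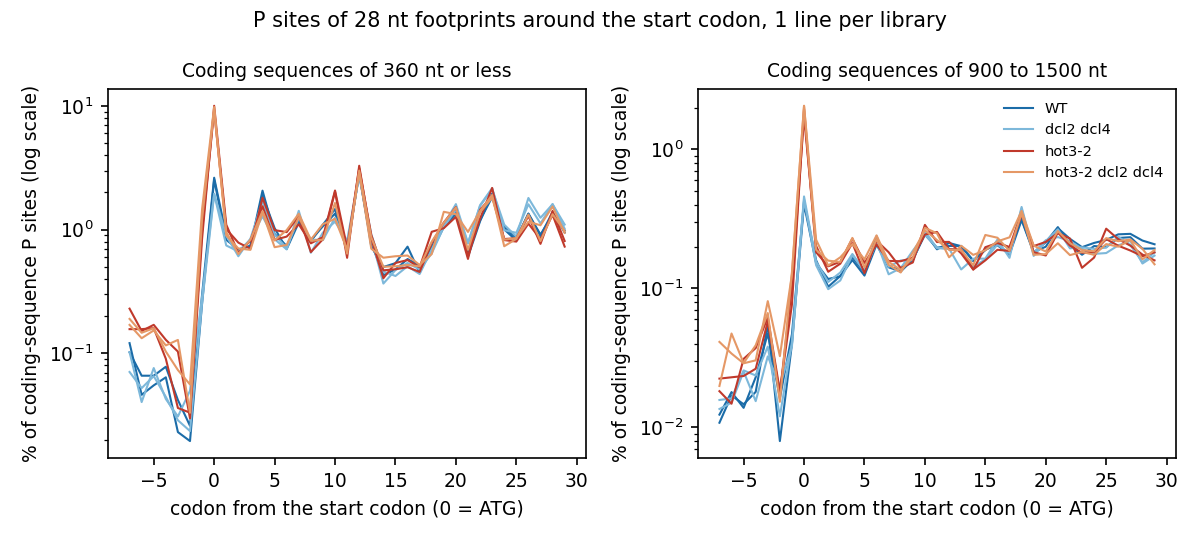
Percent of coding-sequence P sites at each codon from 7 codons before to 29 codons after the ATG, for 28 nt footprints, on a log scale, with 1 line per library. At the ATG of short coding sequences the carriers reach 9.17 to 10.0% and the non-carriers 1.93 to 2.63%, and the lines lie close together over the codons that follow.

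The coding sequences of 900 to 1500 nt changed in the same direction. Their start codon share was 0.573 and 0.616% in WT and 2.71 and 2.43% in hot3-2, while dcl2 dcl4 had 0.441 and 0.468% and the triple mutant 1.76 and 3.04%, a ratio of 4.69 between carriers and non-carriers (exact permutation test, p = 0.0286). With 28 nt footprints the order of WT and dcl2 dcl4 turned in this longer class, with 0.404 and 0.423% in WT against 0.436 and 0.459% in dcl2 dcl4, and the triple mutant libraries came to 2.06 and 2.05%. The level in short coding sequences was several times that of the longer class in each library. The ratio of the 2 classes was 3.99 ± 0.391 (SD, n = 4) in carriers and 4.61 ± 0.176 in non-carriers, a difference that missed the threshold (exact permutation test, p = 0.0571, adjusted 0.0686).

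A higher share is what a short coding sequence has under an even spread, so the share was also divided by the share that each transcript's P sites would give if spread evenly over its codons. By this measure the ATG of short coding sequences was 2.05-fold enriched (SD 0.405, n = 4) in non-carriers and 8.01-fold (SD 1.24, n = 4) in carriers. The longer class stood at 2.06 (SD 0.326) and 9.75 (SD 2.14). The enrichment of the members relative to the longer class was 0.990 ± 0.0403 in non-carriers and 0.833 ± 0.0822 in carriers, a ratio of 0.839 (exact permutation test, p = 0.0286, adjusted 0.0429). This difference between the classes was not found with 28 nt footprints alone (ratio 0.924, exact permutation test, p = 0.486), nor when the window was cut to the first 40 codons of both classes. In that window the start codon took 20.3% ± 2.71 of P sites in carriers and 5.64% ± 1.17 in non-carriers for short coding sequences, 22.2% ± 4.20 and 5.94% ± 0.799 for the longer class, and the ratio of ratios was 0.980 (exact permutation test, p = 0.743).

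Within the class the share did not follow coding length evenly. For the 113 members of up to 180 nt the mean start codon share was 9.93% in carriers and 3.40% in non-carriers. It was 6.83 and 1.81% for the 321 members of more than 180 and up to 240 nt, and 6.58 and 1.89% for the 400 members of up to 300 nt beyond these. The 491 members of more than 300 nt had the highest carrier share, 14.3 and 3.22%, although an even spread gives them the lowest. Divided by the even spread, their enrichment was 16.1 ± 3.18 (SD, n = 4) in carriers and 3.61 ± 1.05 in non-carriers, against 4.19 ± 0.592 and 1.47 ± 0.235 for the shortest members.

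LP1 and LTP2 made up a large part of this peak. Without them the 489 remaining members of more than 300 nt had shares of 8.11% ± 1.48 and 1.89% ± 0.477 and enrichments of 9.05 ± 1.65 and 2.11 ± 0.530. Transcripts of up to 600 nt just outside the limit on length stood at 4.11 and 0.826%, with enrichments of 6.47 and 1.30. Next to the limit, the 108 members of 349 to 360 nt, with LP1 and LTP2 counted, had shares of 14.9 to 25.5% in carriers and 3.16 to 5.91% in non-carriers. The 82 transcripts of 361 to 372 nt, which do not include the pair, had 4.63 to 10.2% and 0.978 to 1.88%. Shares of the 349 to 360 nt members without the pair were not taken, so this step cannot be read as one of length.

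**Figure D3:**
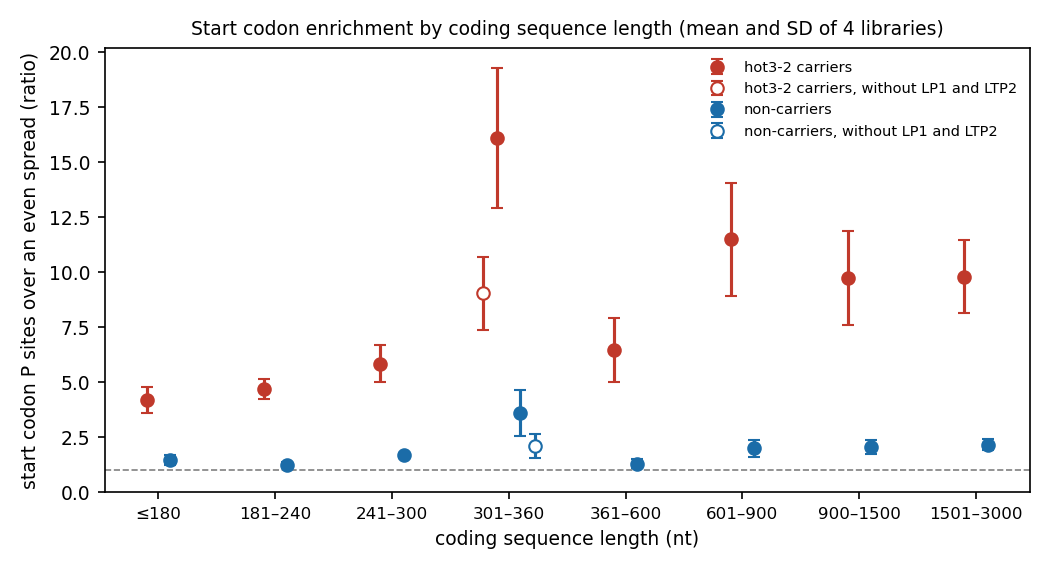
Start codon enrichment over an even spread by coding length, with the mean ± SD of 4 carriers and of 4 non-carriers. Open symbols leave out LP1 and LTP2, and the dashed line at 1 marks an even spread. With both, the bin of the longest members, up to 360 nt, stands at 16.1 in carriers, and without them at 9.05.

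LP1 and LTP2 encode lipid-transfer proteins, small secreted proteins with a cavity that binds lipids, and their genes lie side by side on chromosome 2 (LP1 at chr2:16130290-16131240 and LTP2 at chr2:16128176-16129399, plus strand, 357 nt of coding sequence each). LP1 had 494 and 505 start codon P sites in WT and 1837 and 1020 in hot3-2, while dcl2 dcl4 had 199 and 234 and the triple mutant 606 and 1101. In the same order of genotypes, LTP2 had 551 and 477, 1722 and 1037, 211 and 213, and 621 and 1131. The numbers of the pair ran close to each other in each library, although LP1 had more P sites than LTP2 in the rest of the coding sequence. Together the pair held between 20.0 and 30.3% of all start codon P sites of the class.

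Because the start footprints of the pair cannot be assigned, the summed share is the quantity that can be read. It was 17.9 and 16.5% in WT and 57.4 and 48.5% in hot3-2, while dcl2 dcl4 had 6.97 and 7.85% and the triple mutant 39.5 and 48.6%. The carriers lay above the non-carriers without overlap, and dcl2 dcl4 lay below WT, also with 28 nt footprints (7.18 and 8.23% against 14.1 and 12.1%). Read one at a time, the share rose in LP1 from 7.64% ± 3.67 to 36.6% ± 7.54 (log2 odds ratio 2.98, adjusted p = 2.88e-33, quasi-binomial model) and in LTP2 from 31.3% ± 10.2 to 72.6% ± 4.57 (log2 odds ratio 2.64, adjusted p = 1.70e-23), each SD over 4 libraries. Leaving the pair out of the class gave a ratio of 0.821 between the 2 classes' changes (exact permutation test, p = 0.0286), against 0.863 with it, which had missed the threshold.

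The counts of the pair depended on whether the ATG was included. Over the whole coding sequence LTP2 rose by 1.09 on the log2 scale (SE 0.07, adjusted p = 2.97e-23, limma voom) and LP1 stood at −0.02 (adjusted p = 0.870). Outside the ATG, LTP2 was at −0.21 (adjusted p = 0.0574) and LP1 fell by 0.53 (adjusted p = 9.05e-17). Outside the ATG, LP1 had 1460 and 1645 CPM (counts scaled to the size of the library) in WT and 1066 and 1179 in hot3-2, while dcl2 dcl4 had 2343 and 2146 and the triple mutant 1293 and 1517, so each hot3-2 genotype lay below its counterpart. The 5′ UTR of LP1 held 1.86 to 6.34% of the transcript's P sites in non-carriers and 7.21 to 28.8% in carriers, without overlap. In LTP2 the groups overlapped, with 6.46 and 7.08% in WT and 11.9 and 24.1% in hot3-2. The dcl2 dcl4 libraries had 21.5 and 23.9% and the triple mutant 47.3 and 21.2%. These percentages cover all footprint lengths, at most of which the P-site offset differed between libraries. For the shorter footprints the P site was set nearer the 5′ end in dcl2 dcl4 and in the triple mutant library at 47.3%. This can move P sites from the ATG into the 5′ UTR, and its part in these percentages was not tested.

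To see how many members changed, each transcript with a mean of at least 50 P sites outside the ATG was tested for start codon occupancy in a model of its own. Of the 247 members tested, 78 (31.6%) rose at an adjusted p under 0.05 for the mean of both hot3-2 effects and none fell, against 14.3% of all 5744 transcripts tested and 13.1% of the longer class. The median log2 odds ratio of the members was 1.78, against 1.24 over all transcripts tested. A count of 0.5 was added before each odds ratio was taken, so values at few start codon P sites depend on it. These medians therefore do not show a stronger rise in members. The summed share rose 4.04-fold in members and 4.69-fold in the longer class. In 71 of the 247 (28.7%) the 4 carriers lay above the 4 non-carriers, against 11.9% of all tested, and in none did they lie below. Members had more start codon P sites to test, with a median of 1.88 per library against 0.375 in the longer class, and the part of this difference in the higher share of calls was not tested.

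For hot3-2 against WT, 40 members rose (16.2%, against 8.06% of all), while in the triple mutant, set against dcl2 dcl4, 32 rose and 1 fell (13.0 and 0.405%, against 4.89 and 0.0174%). For dcl2 dcl4 against WT no member passed (quasi-binomial model, 0.104% of all tested). An unadjusted p under 0.05 was found in 17 of the 247 members, against 130 of all 5744 transcripts. No member differed between the 2 hot3-2 effects, with 6 of 247 at an unadjusted p under 0.05, against 89 of 5744. The count of 78 was sensitive to single libraries, falling to 51 without hot3-2 replicate 1, to 47 and 45 without dcl2 dcl4 replicates 1 and 2, and to 46 without hot3-2 dcl2 dcl4 replicate 2.

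Among the 10 most covered members, 7 rose in start codon occupancy (AGP15, MT2A, MT2B, LP1, LTP2, the dehydrin gene AT1G54410 and the ribosomal L38e gene AT3G59540). AGP15 encodes the protein core of an arabinogalactan peptide, a heavily glycosylated peptide of the cell surface. Its share was 1.97 and 1.76% in WT and 7.32 and 5.80% in hot3-2, while dcl2 dcl4 had 1.59 and 1.65% and the triple mutant 7.20 and 7.27% (log2 odds ratio 2.08, adjusted p = 8.46e-20). All 4 carriers stood clear of the non-carriers, and libraries of one genotype lay close together.

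AGP15 carried a second feature at the other end of its 186 nt coding sequence. Its last sense codon held 51097 of its 63358 P sites, 68.2 to 88.6% by library, and 62.2% of all P sites on last sense codons in the class. As a result the last sense codon took 11.1% ± 0.874 of the class's P sites in carriers and 9.90% ± 1.74 in non-carriers, and 4.98% ± 0.615 and 3.85% ± 0.256 without AGP15, where the longer class stood at 0.857 and 0.695%. Outside that codon the start codon held 33.3 and 43.2% of the P sites of AGP15 in hot3-2 against 14.6 and 17.2% in WT, and 26.2 and 35.3% in hot3-2 dcl2 dcl4 against 5.02 and 5.81% in dcl2 dcl4. Leaving AGP15 out of the class changed none of the calls on the 6 class measures. Of the other members rich in last-codon P sites, AT3G59540 had 32.5 to 69.8% of its P sites there, the uncharacterized AT1G11850 55.1 to 71.7% and KIN2 19.2 to 38.3%.

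MT2A and MT2B encode type 2 metallothioneins, small cysteine-rich proteins that bind copper and zinc. The share of MT2B was 2.41 and 2.58% in WT and 12.1 and 8.41% in hot3-2, while dcl2 dcl4 had 2.66 and 3.15% and the triple mutant 8.36 and 8.60% (log2 odds ratio 1.92, adjusted p = 2.28e-15). In the same order, that of MT2A was 1.25 and 1.31%, 4.21 and 4.71%, 2.85 and 2.67%, and 6.43 and 4.54% (log2 odds ratio 1.43, adjusted p = 4.85e-07). Unlike in LP1 and LTP2, the share of MT2A was higher in dcl2 dcl4 than in WT, by a difference that was not called. The counts moved the other way in MT2B, which fell by 0.23 on the log2 scale (SE 0.04, adjusted p = 3.19e-07, limma voom).

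Other members had many footprints and next to none on the ATG. KIN2, a cold-induced gene, had 18124 P sites over the 8 libraries and 4 of them on the start codon, 2 in each dcl2 dcl4 library (64.5% of its 28 nt stretches occur in no other gene). AT5G62080, a member of the lipid-transfer superfamily with 5783 P sites, GRP19, which encodes a glycine-rich protein of the pollen coat, with 4309, and the uncharacterized AT2G35750, with 2225, had none in any library. LTP6, with 17740 P sites, had shares of 0.100 to 0.599% and was not called (log2 odds ratio 0.71, adjusted p = 0.751, quasi-binomial model). AT2G07732, in a stretch of chromosome 2 that copies organelle sequence, had none either, but 8.33% of its stretches occur in no other gene, so its footprints cannot be told from those of other genes and are not read further here. This gene also held 91.4% of the class's 3′ UTR P sites, and without it these made up 0.731% ± 0.0216 of footprints in carriers and 0.628% ± 0.0964 in non-carriers.

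The largest odds ratios among called members without overlap between the groups belonged to GASA1, AT5G03850, AT5G67490, AT1G07070, GASA4, LTP3, AT1G72020, GIP1, SUMO2 and AT5G47930, with log2 odds ratios from 3.52 to 5.60. LTP3, another lipid-transfer protein gene, had shares of 0.242 and 0.605% in WT and 12.5 and 10.5% in hot3-2, while dcl2 dcl4 had 0.722 and 1.69% and the triple mutant 11.2 and 9.41% (log2 odds ratio 4.04, adjusted p = 4.66e-13). In the same order AT1G72020 had 1.37 and 3.11%, 26.4 and 31.2%, 1.09 and 4.28%, and 20.9 and 36.3% (log2 odds ratio 4.00, adjusted p = 1.61e-13). In both genes the carriers exceeded the non-carriers several fold and the start codon stretch occurs in no other gene. SUMO2, which encodes a small protein that is attached to other proteins, had, again in this order, 8.20 and 0%, 29.2 and 17.6%, 0 and 1.01%, and 12.2 and 24.2% (log2 odds ratio 3.71, adjusted p = 0.000308), so WT replicate 1 stood apart from the other non-carriers.

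Several of these calls rest on few footprints. GASA1, which encodes a gibberellin-regulated peptide, had no start codon P site in the 4 non-carriers and 14, 2, 2 and 14 in the carriers, and its call (adjusted p = 0.0233) was lost without any of 6 of the 8 libraries, at adjusted p up to 0.519 (without hot3-2 replicate 1). The related GASA4 had 1, 1, 4 and 2 in carriers against none (adjusted p = 0.0416) and lost its call without any 1 library, at adjusted p up to 0.174. GIP1, a partner of the gamma-tubulin complex that nucleates microtubules, lost its call without hot3-2 replicate 1 (adjusted p = 0.166, against 0.00180). AT5G03850 and the L35Ae gene AT1G07070, both at 0 in the non-carriers, lost theirs without any of 5 libraries, at adjusted p up to 0.331 and 0.0952. LTP3, AT1G72020, SUMO2, AT5G47930 and AT5G67490, a succinate dehydrogenase assembly factor gene, kept theirs without any 1 library.

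**Figure D4:**
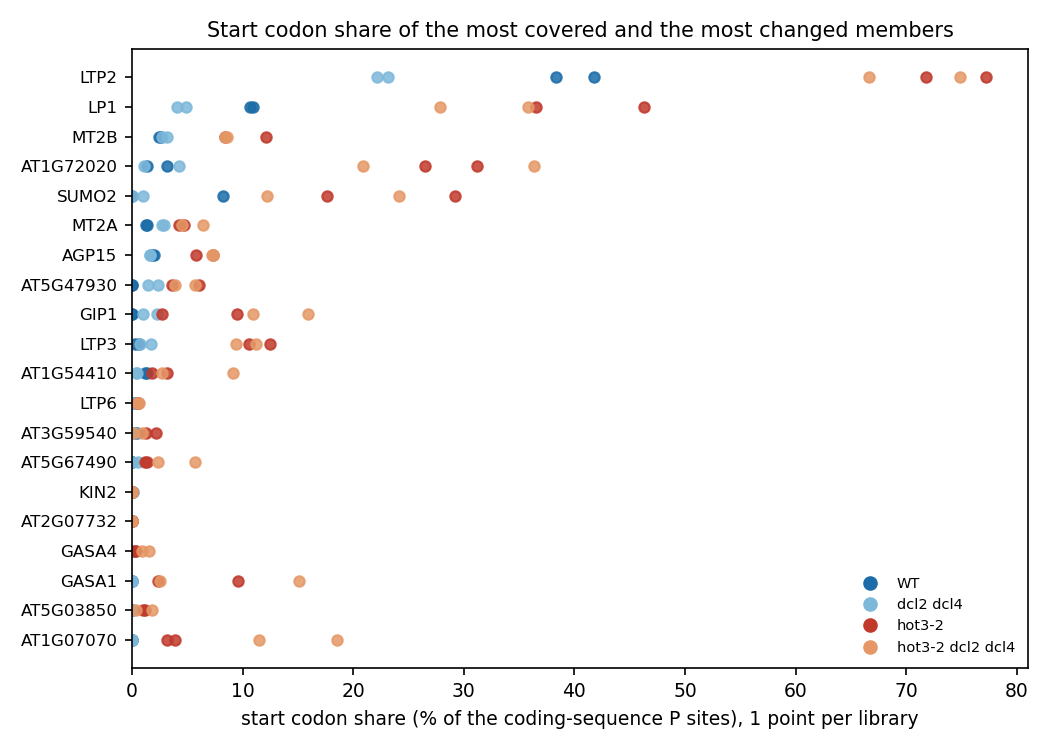
Start codon share in each library for the 10 most covered members and for the 10 called members with the largest odds ratios. LTP3 and AT1G72020 lie at 9.41% or more in carriers and at 4.28% or less in non-carriers, while KIN2, LTP6 and AT2G07732 stay near 0 in all 8 libraries.

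Members of the same biochemical group were then compared. Of 44 ribosomal protein genes tested for start codon occupancy 17 rose (38.6%, against 31.6% of all members tested and 14.3% of all transcripts), and in sum the group had shares of 8.64 to 12.9% in carriers and 2.46 to 4.13% in non-carriers. Of 27 respiratory chain and ATP synthase genes 10 rose, with shares of 6.09 to 9.27% against 1.53 to 2.09%. Among lipid-transfer protein genes 5 of 13 rose, among metallothioneins 3 of 5, among arabinogalactan peptides 4 of 6, among mitochondrial import proteins 3 of 7, and among members of no group 19 of 97 (19.6%). Calls were spread over the groups, in most of which few genes were tested. The lipid-transfer proteins without LP1 and LTP2 had shares of 4.54 to 7.31% in carriers and 1.29 to 2.23% in non-carriers, ranges below those of the ribosomal proteins.

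Within the ribosomal proteins the level varied widely. The highest shares, picked out after their values were seen, belonged to AT3G55750 (L35Ae), AT5G47700 (acidic P protein), AT3G53890 (S21e) and AT3G44010 (S14p/S29e). The start codon stretch of AT3G55750 is shared with another gene, and 39.6% of its 28 nt stretches occur in no other gene, so its start footprints cannot be assigned to it alone. AT5G47700 lost its call in start codon occupancy without dcl2 dcl4 replicate 1 (adjusted p = 0.122, against 0.00312, quasi-binomial model). AT3G53890 had 22.6 and 22.2% of its P sites on the ATG in WT and 53.0 and 53.4% in hot3-2, while dcl2 dcl4 had 22.0 and 29.9% and the triple mutant 65.2 and 61.1%. AT3G44010 had, in the same order, 17.4 and 10.1%, 48.4 and 48.5%, 22.6 and 13.7%, and 47.7 and 43.2%. In both genes at least 43.2% of the P sites of a carrier lay on the ATG, with no overlap between the groups. At the other end AT3G59540 had 0 to 0.415% in non-carriers and 0.0849 to 2.15% in carriers, which overlap, and its call (adjusted p = 0.0241) was lost without any of 5 libraries, at adjusted p up to 1.

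Sequence context was set beside the calls as a description. Of the 78 members called, 69.2% had an adenine 3 nt before the ATG and 65.4% a guanine directly after it, against 66.7 and 56.0% of the 168 tested members that were not called and had a readable context. Both a purine 3 nt before and a guanine after were found in 60.3 and 46.4%, and in 40.8% of all members. These percentages were not tested.

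The members also took a somewhat larger part of all footprints in the carriers. Their part of nuclear coding-sequence P sites was 4.73 and 4.74% in WT and 5.32 and 5.22% in hot3-2, while dcl2 dcl4 had 4.91 and 4.91% and the triple mutant 5.23 and 5.35%, or 5.28% ± 0.0642 against 4.82% ± 0.103 (n = 4 each, ratio 1.10, exact permutation test, p = 0.0286, adjusted 0.0429). Outside the ATG it was 4.92% ± 0.0372 against 4.74% ± 0.119 (ratio 1.04, p = 0.0286, exact permutation test). Without the first and last 10 codons it was 3.57% ± 0.0753 against 3.56% ± 0.164 (ratio 1.00, p = 0.914, exact permutation test). That mean averages opposite directions, since hot3-2 (3.51 and 3.49%) stayed above WT (3.39 and 3.45%) while the triple mutant, at 3.65% or less, lay below dcl2 dcl4 (3.71 and 3.69%).

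Counts per member were compared next. A footprint count reflects both the amount of an mRNA and how many ribosomes it carries, RNA levels were not used here, and in whole inflorescences fewer cells of a type and less RNA per cell cannot be told apart. Of 642 members tested by limma voom, 138 rose (21.5%, against 8.87% of all transcripts tested) and 55 fell (8.57%, against 8.95%) for the mean of both hot3-2 effects. The median log2 change was 0.17 in members and 0.01 over all 13323 transcripts. Members rose more often than the background, while the part that fell was close to it. In 104 members the 4 carriers lay above the non-carriers and in 50 below, against 7.84 and 8.07% of all.

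By genotype, 98 members rose and 44 fell in hot3-2 against WT (15.3 and 6.85%, against 7.29 and 7.1% of all), and 72 rose and 32 fell in the triple mutant against dcl2 dcl4 (11.2 and 4.98%, against 4.3 and 4.61%). Between dcl2 dcl4 and WT 33 rose and 35 fell (5.14 and 5.45%, against 2.28 and 3.13%). Outside the start codon 109 of 631 rose and 58 fell (17.3 and 9.19%, against 8.27 and 8.57%), and of the members called over the whole coding sequence 104 of the 138 that rose and 53 of the 55 that fell were called there too. Of the members that rose in counts 38 also rose in start codon occupancy, and of those that fell, 12. The same numbers were not taken over all transcripts, and the counts include the ATG P sites, so the 2 calls are not independent. The number of calls in the triple mutant (104 in all, 8.91% of all transcripts) fell to 59 without dcl2 dcl4 replicate 1, and that between dcl2 dcl4 and WT (68 in all, 5.41%) to 29 without WT replicate 1 and to 22 and 40 without dcl2 dcl4 replicates 1 and 2.

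Ribosomal protein genes were 39 of the 138 members that rose, while 73 belonged to none of the groups. Of the 55 ribosomal protein genes in the class 50 were tested, of which 39 rose and none fell. Their median log2 change was 0.67, against 0.01 over all transcripts. In sum they held 10640 to 11070 CPM in carriers and 6279 to 6824 CPM in non-carriers, a ratio of 1.66. Outside the ATG 37 rose, and without the first and last 10 codons 31 of 49 rose and 1 fell, with a median of 0.65. Leaving out 1 library at a time left 32 to 38 that rose and none that fell. The rise was therefore present along the coding sequence of most of these genes.

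AT3G60245, a zinc-binding ribosomal protein gene and with AT3G59540 the most covered of the group, had 476 and 458 CPM in WT and 735 and 693 in hot3-2, while dcl2 dcl4 had 595 and 597 and the triple mutant 714 and 770 (log2 change 0.47, SE 0.06, adjusted p = 1.03e-09). AT3G59540 rose by 0.67 (SE 0.06, adjusted p = 6.31e-17), but without the first and last 10 codons its change was 0.03 (adjusted p = 0.862), so its rise lay at the ends of the coding sequence. AT3G44010 rose by 1.55 (SE 0.12, adjusted p = 8.39e-18) and still by 0.93 outside the ATG (adjusted p = 2.35e-07). AT3G53890 rose by 1.25 (SE 0.13, adjusted p = 2.08e-13), and outside the ATG stood at 0.42 (adjusted p = 0.0533).

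Among the lipid-transfer proteins more genes fell than rose. Of 23 tested genes 10 fell (43.5%, against 8.95% of all transcripts) and 1 rose, with a median of −0.66, and the gene that rose was LTP2, whose rise lay on the ATG it shares with LP1. AT5G62080 had 489 and 499 CPM in WT and 149 and 176 in hot3-2, while dcl2 dcl4 had 567 and 518 and the triple mutant 139 and 140 (log2 change −1.78, SE 0.09, adjusted p = 5.92e-29). AT4G33355 had, in the same order, 112 and 117, 28.98 and 35.2, 89.2 and 93.6, and 28.04 and 22.3 CPM (log2 change −1.85, SE 0.18, adjusted p = 4.89e-14). In both genes the carriers lay far below the non-carriers, with or without the dcl2 dcl4 mutations. Without hot3-2 dcl2 dcl4 replicate 1, 7 of 22 tested genes of the group fell.

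GRP19 fell likewise, from 453 and 371 CPM in WT to 137 and 144 in hot3-2 and from 315 and 297 in dcl2 dcl4 to 148 and 134 in hot3-2 dcl2 dcl4 (log2 change −1.33, SE 0.10, adjusted p = 4.50e-20). Markers of the tapetum, the anther layer that feeds the pollen, fell alongside: 7 of 9 were called down, and their summed level was 732 to 858 CPM in carriers and 1359 to 1548 in non-carriers. Among the 9, A9 (AT5G07230) is itself a member of the class and was not called (log2 change −0.66, adjusted p = 0.0541). MS1 was not called either, and its fitted log2 change had the other direction (0.39, adjusted p = 0.552, limma voom). Of the floral organ identity genes 2 of the 3 tested fell, and pollen markers summed to 242 to 419 CPM against 253 to 502, with 1 of 6 called down. The part of a change in tapetum content in these falls was not tested.

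The remaining groups are read against the 8.87% of all transcripts that rose and the 8.95% that fell, and against 21.5 and 8.57% of all members. Defensins, thionins and protease inhibitors fell in 5 of 24 (20.8%) and rose in none, from 1112 to 1275 CPM in non-carriers to 834 to 935 in carriers. LCR66, one of them, fell by 0.78 (SE 0.10, adjusted p = 3.40e-10). Respiratory chain and ATP synthase subunits rose in 9 of 39 (23.1%) and fell in 3, but without the first and last 10 codons 3 of 38 rose and 5 fell, and with 28 nt footprints 3 of 34 rose and 2 fell. Mitochondrial import proteins rose in 4 of 8, and in 2 and 1 of 8 under these settings. In the Sm and LSm proteins, which form the rings of splicing particles, 2 of 14 rose (14.3%), near the background. Histones fell in 3 of 7, metallothioneins in 3 of 5, and auxin-responsive SAUR genes passed in neither direction (0 of 12). Ubiquitin-like proteins rose in 3 of 15 and in 1 outside the ATG.

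**Figure D5:**
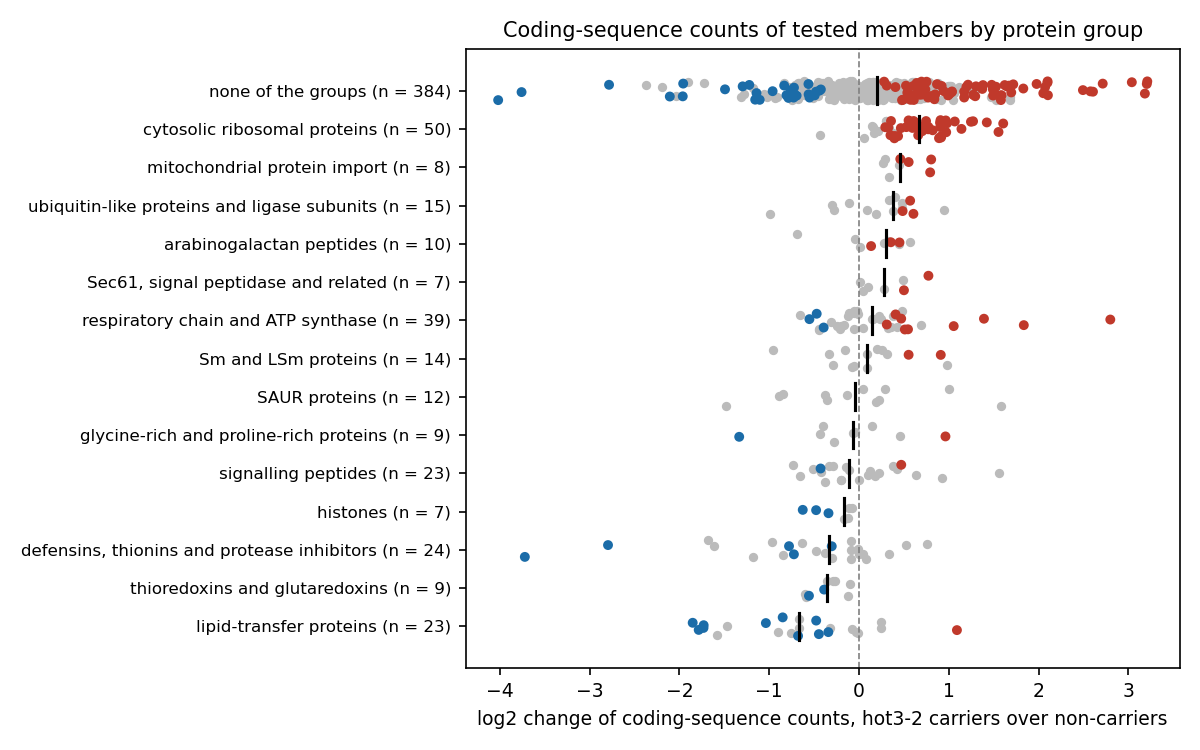
Log2 change in coding-sequence counts, carriers against non-carriers, for each tested member by protein group. Red points rose and blue points fell at an adjusted p under 0.05, grey points did not pass, and the bar is the group's median. Ribosomal protein genes have 39 of 50 points called up and none down, and lipid-transfer proteins 10 of 23 called down.

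The largest changes in counts without overlap between the groups fell mostly on uncharacterized genes with few footprints. An exception was AT2G35750, which had 90.9 and 92.1 CPM in WT and 238 and 208 in hot3-2, while dcl2 dcl4 had 33.7 and 49.2 and the triple mutant 318 and 299 (log2 change 2.10, SE 0.12, adjusted p = 8.84e-26), with no P site on its ATG in any library. AT1G52905 rose from 6.52 to 8.19 CPM in non-carriers to 23.9 to 40.0 in carriers (log2 change 2.10, adjusted p = 2.83e-08), and 28.7% of its stretches occur in no other gene. MRU1, AT5G35480, AT5G66052, AT4G39300, AT5G09225 and AT3G54880 had larger fitted changes on 33 to 96 P sites over all libraries. MRU1 and AT5G35480 lie next to each other on chromosome 5. AT4G39300 had 40.0 to 68.2% of its P sites on the ATG in carriers and none in the non-carriers.

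On the other side PCC1, a gene of pathogen response, had 21.4 and 10.1 CPM in WT and 0.500 and 0 in hot3-2, while dcl2 dcl4 had 19.3 and 15.6 and the triple mutant 3.30 and 0.767 (fitted log2 change −4.02, adjusted p = 0.000127), with 34.6% of its stretches in no other gene. SCRL26, which encodes a defensin-like peptide, had no P site in the carriers and 1.98 to 6.15 CPM in the non-carriers (adjusted p = 0.00207). AT1G19960, AT2G21465, AT1G22065 and AT1G64360 fell on 56 to 208 P sites. Fitted changes of genes with so few footprints depend on the small count added before the logarithm. Among the 16 members with the largest changes in counts, AT3G54880, AT4G39300, AT5G35480, MRU1, AT1G22065 and AT2G21465 lost their call (limma voom) without any of 2 to 4 single libraries, or in AT5G35480 without hot3-2 dcl2 dcl4 replicate 2, at adjusted p up to 0.218, 0.0624, 0.0630, 0.0730, 0.245 and 0.0799.

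AT1G27695 and AT1G72020 were further members whose counts differed with and without the ATG, by less than those of LTP2. AT1G27695, a glycine-rich protein gene, had 5.37 and 3.68% of its P sites on the ATG in WT and 49.0 and 26.8% in hot3-2, while dcl2 dcl4 had 26.5 and 19.9% and the triple mutant 54.2 and 64.6% (log2 odds ratio 2.99, adjusted p = 5.21e-07). The groups just failed to overlap, since dcl2 dcl4 stood far above WT. With 28 nt footprints, of which each library had 34 to 83 in this gene, the shares were 0 to 6.94% in non-carriers and 0 to 23.5% in carriers, with hot3-2 replicate 2 at 0, so the groups overlapped. Its count rose by 0.96 (SE 0.12, adjusted p = 9.18e-10), and outside the ATG the change was 0.20 (adjusted p = 0.422). AT1G72020 had a change of 0.05 over the whole coding sequence (adjusted p = 0.813) and fell by 0.36 outside the ATG (adjusted p = 0.0256).

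Footprints in the 5′ UTR were compared as part of 6 further positions, in 18 tests of which none passed after adjustment. The smallest p this exact permutation test can give is 0.0286. Adjustment over 18 tests brings it under 0.05 only where most of them reach it. The lack of a call therefore does not show that a position was unchanged. They made up 6.36% ± 1.90 of the members' footprints in carriers and 2.91% ± 0.561 in non-carriers (n = 4 each, ratio 2.15, exact permutation test, p = 0.0286, adjusted 0.171), and 3.03 and 1.44% in the longer class. AT3G13857, LP1 and LTP2 held 18.1, 7.79 and 7.36% of those in the class. Without AT3G13857, an uncharacterized gene with 98.7% of its footprints in the 5′ UTR, the values were 5.52% ± 1.95 and 2.24% ± 0.504. With all members, WT had 2.18 and 2.79%, hot3-2 4.69 and 5.56%, dcl2 dcl4 3.20 and 3.48% and the triple mutant 9.07 and 6.12%. These values cover all footprint lengths. The shorter offsets of dcl2 dcl4 and of the triple mutant library at 9.07% can move P sites from the ATG into the 5′ UTR. The part of these offsets in the values was not tested. The part of P sites in the reading frame was 68.1% in carriers and 67.3% in non-carriers for the members, below the 73.6 and 72.1% of the longer class.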

How the data were processed

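Ribosome footprints were sequenced from inflorescences of 4 genotypes, with 2 libraries each. The authors deposited 1 line per footprint with its transcript, ends and P site as positions in nt, not normalised. Per the methods and labels, the authors trimmed reads (cutadapt), mapped those of 18 to 42 nt to TAIR10 (STAR) and set P sites with RiboTaper. In the deposited files the offset was 12 nt for 28 nt and 13 nt for 29 nt footprints in all 8 libraries, but at other lengths it differed between libraries, largely by genotype (at 26 nt it was 10 nt in both dcl2 dcl4 libraries and hot3-2 dcl2 dcl4 replicate 1 and 12 nt in the others). Settings for reads with several matches and removal of duplicates are not given for footprints in the sources used here, so reads from near-identical genes, or from a gene and its antisense partner, may be shared.

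P sites on nuclear transcripts were counted per coding sequence and on the ATG. Members matched RefSeq TAIR10.1 in 1319 cases, of which 970 had all 28 nt stretches in no other gene and 79 under 50%. Class values were compared over libraries by two-sided exact permutation tests on log2 values. Differences in counts came from limma voom (version 3.58.1 under R 4.3.3), run on transcripts with 15 counts in all and, in 2 or more libraries, the equivalent of 10 counts in a library of median size, scaled by trimmed means of log ratios (30 and 5% trimmed) into CPM. Start codon P sites against other coding-sequence P sites were tested in a quasi-binomial model with limma-moderated dispersions. A transcript's own dispersion replaced the trend where it was larger, with a floor of 1, which departs from the planned shared dispersion. The mean hot3-2 effect averages both contrasts. P-values were adjusted by Benjamini-Hochberg over all transcripts tested, with calls under 0.05. On simulated data the count test recovered 80% of 2-fold and 100% of 4-fold changes among 12860 transcripts, with 7.69% false calls. The start test recovered 52% of 4-fold and 89% of 8-fold changes among 5744, with 2.76% false calls. Its changed transcripts were drawn only from those with deep coverage and a start codon share above a lower limit. That coverage limit lay above the 145 coding-sequence P sites per library of the median tested member, so recovery at lower coverage was not measured.

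Libraries of a genotype differed by more than counting noise (chi-square per degree of freedom 2.26 to 3.94 over members), so none was treated as a duplicate deposit of another. This does not show that they came from separate plants. Members named are the 10 most covered, the 10 called with the largest odds ratios and the 8 that rose and 8 that fell most without overlap, and 2 per protein group. The members named, the groups and the markers were chosen with earlier results of these data known, while the class itself was set by the 2 annotated lengths. Alternatives were other footprint lengths, length limits, filters, scalings and dispersions, the codon before the ATG, a replicate block, single libraries left out and, added after seeing the data, unshared sequence, single genes and parts of the coding sequence.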

Additional observations from a re-analysis of the deposited data

Results flagged for a closer look

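The effect of hot3-2 on coding-sequence counts differed between the 2 backgrounds in 10 of 642 members (1.56%, against 1.1% of all transcripts tested) by the interaction term of the limma voom fit. The difference of the log2 changes (that of hot3-2 dcl2 dcl4 against dcl2 dcl4, less that of hot3-2 against WT) was 1.62 for AT2G35750, which rose by 1.29 and 2.91. It was 1.38 for PRE1, a small helix-loop-helix protein gene of growth control, with changes of −0.36 and 1.02, and 0.74 for AT1G11850, with −0.43 and 0.31. It was −1.27 for LSM3A, a subunit of RNA-binding rings, with 1.55 and 0.28, −1.16 for AT4G20150, with 0.33 and −0.83, and −1.02 for the S14p/S29e ribosomal protein gene AT3G44010, with 2.06 and 1.05. Smaller differences were found for the dehydrin gene AT1G54410 (−0.63, from −0.18 and −0.81), for KIN2 (−0.57, from −0.15 and −0.73), for LP1 (−0.33, from 0.15 and −0.18) and for MT2A (−0.27, from 0.02 and −0.25). The 2 WT libraries differed in AT4G20150 (283 and 157 CPM) and in AT1G54410 (2508 and 1704 CPM), and the adjusted p-values of the 10 ran up to 0.0354.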

How the results depend on the processing

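The start codon share kept its direction and size in both classes in the alternatives run, with ratios of 3.78 to 4.34 for short coding sequences and 4.35 to 5.22 for 900 to 1500 nt when 1 library was left out. Beside these stood 1.09 to 1.10 for the part of footprints on members, 0.830 to 0.896 for the share of short over longer coding sequences, 0.808 to 0.872 for the enrichment ratio and 0.942 to 1.00 for the first 40 codons. With 7 libraries the smallest exact permutation p is 0.0571, above the threshold. The replicate numbers did not pair the libraries (correlations of deviations −0.018 to 0.012). With the replicate block the ratios were 4.04, 4.69, 0.839 and 1.10 for short share, longer share, enrichment and part of footprints, each at the smallest p it allows (0.0556), and 196 members were called in counts and 69 in start codon occupancy. The enrichment ratio missed the threshold with 28 nt footprints (0.924), 26 to 29 nt footprints (0.890), coding sequences of 300 nt or less (0.746) and no shared stretches (0.754). The share ratio passed it without the 5′ UTR limit (0.865), without the 10 most covered transcripts of each class (0.837), with the codon before the ATG (0.879), without LP1 and LTP2 (0.821) and as a mean of per-transcript shares (0.820). The first-40-codon ratio turned to 1.01 with 28 nt footprints, to 1.01 with the codon before the ATG and to 1.00 without WT, hot3-2 or hot3-2 dcl2 dcl4 replicate 2. The part of footprints on members was 1.00 without the first and last 10 codons. The cause of these shifts was not tested.

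With 28 nt footprints, which leave fewer footprints, 111 members were called for the mean hot3-2 effect on counts, 92 for hot3-2, 49 for hot3-2 dcl2 dcl4 and 33 for dcl2 dcl4, and 23 of 132 for start codon occupancy. Without 1 library these calls were 149 to 181, 95 to 142, 59 to 110, 22 to 71 and 45 to 81. Other start codon settings gave 52 (26 to 29 nt), 84 (a mean of at least 10 P sites), 107 (at least 1 start codon P site), 94 (codon before the ATG) and 89 (shared dispersion). The share of all transcripts called under each of these settings is not given here, so the numbers describe how many member calls remained and not an excess over all transcripts. Of 42 named members called in counts, 12 lost the call without at least 1 library and none changed direction, and of 24 called in start codon occupancy, 9 lost it. The count change turned to −0.40 for AT1G27695, −0.43 for AT1G72020, −0.39 for LTP2 and −0.0375 for AGP15 without the first and last 10 codons, and to −0.36 for AT1G72020 and −0.21 for LTP2 outside the ATG. Depth limits the start codon test to 247 of 1325 members, and an ATG with no P site allows up to 3.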
